A study of Mus musculus with 12 samples.

Results

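Gonadal steroids act on the amygdala through receptors that its own cells make, and 6 genes of this system were followed here in amygdala mRNA of female mice, out of 47729 genes in the deposited count table. They were the nuclear estrogen receptors Esr1 and Esr2, the membrane estrogen receptor Gper1, the progesterone receptor Pgr, the aromatase gene Cyp19a1 and the estrogen-regulated gene Greb1. All 6 symbols matched 1 row each and passed the filter of at least 10 estimated reads in total.

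The mice were 12 female C57/BL6 animals, an inbred strain that carried no mutation and got no drug in this study, bought at 7 weeks of age. They went through the elevated plus maze at 9 weeks, the light/dark box at 10 weeks and a 3-chamber social interaction test at 11 weeks, and both amygdalae of each mouse were then sequenced as 1 library. The predicted anxiety state in the labels puts mice 3, 7 and 12 in the less anxious group, mice 1, 4, 8 and 11 in the anxious group and mice 2, 6, 9 and 10 in the more anxious group. Mouse 5 has no state and stayed out of every comparison unless named. The study set it aside as an outlier of its principal component analysis, and it had 23768 genes with a read, against 26378 to 28196 in the other 11 mice. The states were cut from a principal component of this same expression table, so a difference between groups is not independent of the genes compared. The behavior measures were scored without the expression values. The study chose that component for its correlation with the maze and light/dark measures and used it as their proxy. Mouse 6 of the more anxious group had the largest open-arm time (29.2%), time in the light (46.6%) and share of distance in the light (41.9%) of the 11 mice. The state is thus not a direct score of what each mouse did. The stage of the estrous cycle is not given in the sources used here.

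Estradiol binds the products of Esr1 and Esr2, which move to DNA as pairs and change transcription at estrogen response elements, while Gper1 encodes a G protein-coupled receptor linked to rapid signaling. Aromatase makes estradiol from testosterone inside the brain, and in rodents the medial amygdala is a known site of this enzyme and of Esr1. Pgr and Greb1 are textbook targets of estrogen signaling, and the protein made from Greb1 acts as a cofactor of the estrogen receptor.

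Totals ran from 31745630 to 45142355 estimated counts in the 11 mice with a state. Genes listed as amygdala markers were present. In a list for the medial and other subpallial amygdala 12 of 13 had a mean of at least 1 CPM (counts scaled to the size of the library). All 10 did in a list for the basolateral and cortical amygdala. The medial list holds Otp, Sim1 and Avp, and whether its genes come only from the amygdala was not tested. Sim1 ran from 0.419 to 28.0 CPM and Avp from 0.394 to 21.3 CPM. The highest means in that list were those of Npy (54.4 CPM) and Ecel1 (40.1 CPM). Summed levels of the medial list ran from 174 to 218 CPM in less anxious, 147 to 234 in anxious and 161 to 235 in more anxious mice. In a list of hypothalamus markers 7 of 10 genes stayed under 1 CPM, and in a pituitary list 7 of 11. The hypothalamus sum was nevertheless 19.8 to 31.3 CPM in less anxious, 17.6 to 52.7 in anxious and 15.46 to 70.45 in more anxious mice. Its gene Trh alone ran from 10.4 to 64.2 CPM. The part of neighboring tissue in the levels of the followed genes was not tested. In a list of striatum markers 0 of 10 genes were under 1 CPM, and their sum was 480 to 1303 CPM in less anxious, 383 to 756 in anxious and 466 to 898 in more anxious mice. The summed pituitary level was 57.9 CPM in mouse 4 and 19.1 CPM in mouse 11, against 2.64 to 6.57 CPM in the other 9 mice.

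The promoters of Greb1 and Pgr are shown because these 2 estrogen targets had the widest and the narrowest spread between mice. Each sequence is the 250 bases before a RefSeq start site (GRCm38.p6), written 5′ to 3′ on the strand of the gene, with copies of the half-site GGTCA or its complement TGACC in capitals. The Greb1 windows lie at chr12:16800887-16801136 and chr12:16757240-16757489 on the minus strand, and the Pgr window at chr9:8899583-8899832 on the plus strand.
Greb1, start 1: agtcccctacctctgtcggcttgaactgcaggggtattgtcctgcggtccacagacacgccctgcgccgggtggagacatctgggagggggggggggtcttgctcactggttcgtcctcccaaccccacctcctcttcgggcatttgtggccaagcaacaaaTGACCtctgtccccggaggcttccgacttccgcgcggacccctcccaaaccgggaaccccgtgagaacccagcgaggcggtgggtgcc
Greb1, start 2: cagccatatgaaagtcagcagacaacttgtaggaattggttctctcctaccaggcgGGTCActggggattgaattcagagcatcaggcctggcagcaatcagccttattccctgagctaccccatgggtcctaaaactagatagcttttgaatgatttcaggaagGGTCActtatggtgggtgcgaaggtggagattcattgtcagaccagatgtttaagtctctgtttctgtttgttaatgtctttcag
Pgr: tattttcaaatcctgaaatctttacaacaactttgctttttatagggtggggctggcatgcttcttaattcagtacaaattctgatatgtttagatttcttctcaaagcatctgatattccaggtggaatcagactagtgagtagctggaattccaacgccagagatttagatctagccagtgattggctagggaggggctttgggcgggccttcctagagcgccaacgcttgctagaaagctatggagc
Greb1 had 1 half-site in the window of start 1, at 88 bases before it, and 2 in that of start 2, at 194 and 85 bases. The Pgr window had none. Half-sites occurred in 35.2% of 32851 promoter windows of this length, searched on both strands, so their presence does not set Greb1 apart. Over all 6 genes RefSeq gave 10 windows, of which 5 held a half-site, namely both of Greb1, that of Esr2 and 2 of the 3 of Cyp19a1. The full estrogen response element, 2 such half-sites facing each other as GGTCANNNTGACC, was in 0 of the 10 windows and in 0.0639% of all windows. An absent match says only that these letters are not in these bases.

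Levels differed widely between the 6 genes. On the scale of CPM per kilobase of exon (GENCODE M21), which allows genes of different length to be compared, Pgr was highest with 2.25 ± 0.194 (SD, n = 11 mice). Esr1 followed with 0.983 ± 0.387 and Gper1 with 0.858 ± 0.136, and the spreads of these 2 overlap. Esr2 had 0.363 ± 0.126. Greb1 and Cyp19a1 were lowest, at 0.248 ± 0.181 and 0.242 ± 0.0985, and did not differ beyond their spread. Every other value below is CPM scaled with TMM factors, without a length correction.

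Esr1 (ENSMUSG00000019768, chr10:4611593-5005614, plus strand) encodes estrogen receptor alpha. Its level was 13.9, 10.9 and 7.83 CPM in less anxious mice 3, 7 and 12, and 15.8, 10.7, 16.9 and 26.3 CPM in anxious mice 1, 4, 8 and 11. More anxious mice 2, 6, 9 and 10 had 16.1, 11.7, 8.31 and 9.48 CPM. Mouse 11 stood highest, and the 3 groups overlapped. The anxious mice were 1.63-fold above the less anxious mice (log2 change 0.71, SE 0.33, edgeR quasi-likelihood test, unadjusted p = 0.0608, adjusted p = 0.987), which did not pass. Without mouse 11 this log2 change was 0.38 (unadjusted p = 0.245), and without mouse 3 it was 0.91 (unadjusted p = 0.0407, adjusted p = 0.735). These were the lowest and the highest value with a mouse left out. More against less anxious mice gave a log2 change of 0.10 with an SE of 0.34. These are bulk samples, so fewer cells of a type and less RNA per cell cannot be told apart.

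Esr2 (ENSMUSG00000021055, chr12:76120419-76177259, minus strand) encodes estrogen receptor beta. Less anxious mice 3, 7 and 12 had 1.05, 1.18 and 1.38 CPM, and anxious mice 1, 4, 8 and 11 had 2.12, 1.10, 0.866 and 1.09 CPM. The more anxious mice were split, with 1.47 and 1.71 CPM in mice 2 and 6 and 0.728 and 0.752 CPM in mice 9 and 10. The less anxious mice lay inside the range of both other groups. More against less anxious mice gave a log2 change of -0.11 (SE 0.38). Only 27 to 74 estimated reads per mouse stood behind these values, and counting alone gives a coefficient of variation of 14.8% at their mean, against 34.6% measured. A processed pseudogene, Gm7862, overlaps Esr2 on the same strand at a mean of 0.0221 CPM.

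Gper1 (ENSMUSG00000053647, chr5:139423151-139427800, plus strand) encodes the G protein-coupled estrogen receptor. Its level was 1.77, 2.67 and 2.17 CPM in less anxious mice 3, 7 and 12, 2.38, 2.40, 2.44 and 1.76 CPM in anxious mice 1, 4, 8 and 11, and 2.44, 1.92, 2.37 and 1.64 CPM in more anxious mice 2, 6, 9 and 10. The 3 groups overlapped. The SD of log2 CPM was 0.23, and 59.0% of the genes with a mean of at least 1 CPM had a smaller one. The log2 change of more against less anxious mice was -0.11 (SE 0.22). Mouse 5, which has no state, had 4.02 CPM, above the highest of the other mice. The coding gene 3110082I17Rik overlaps Gper1 on the opposite strand at a mean of 6.36 CPM. The libraries were stranded, but whether the counting used the strand is not given in the sources used here.

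Pgr (ENSMUSG00000031870, chr9:8899833-8968611, plus strand) varied least. It had 22.2, 16.4 and 20.7 CPM in less anxious mice 3, 7 and 12, 20.13, 19.99, 17.51 and 20.17 CPM in anxious mice 1, 4, 8 and 11, and 19.6, 17.8, 18.4 and 18.4 CPM in more anxious mice 2, 6, 9 and 10. The highest and the lowest mouse were both less anxious. More against less anxious mice gave a log2 change of -0.05 (SE 0.11). The SD of log2 CPM over the mice was 0.12, and 15.3% of the 15891 genes with a mean of at least 1 CPM had a smaller one.

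Cyp19a1 (ENSMUSG00000032274, chr9:54165937-54268110, minus strand) was the lowest of the 6 genes in CPM. Less anxious mice 3, 7 and 12 were close together at 0.969, 0.931 and 1.02 CPM. Anxious mice 1, 4, 8 and 11 had 1.86, 1.25, 0.704 and 1.42 CPM, and more anxious mice 2, 6, 9 and 10 had 1.78, 0.899, 0.455 and 0.725 CPM. Both wider groups enclosed the less anxious mice. The log2 change was 0.45 (SE 0.42) for anxious against less anxious and 0.03 (SE 0.43) for more against less anxious mice, from 20 to 79 estimated reads per mouse.

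Greb1 (ENSMUSG00000036523, chr12:16670615-16800886, minus strand) differed most between mice. Less anxious mice 3, 7 and 12 had 0.775, 4.53 and 5.01 CPM, anxious mice 1, 4, 8 and 11 had 1.58, 0.784, 2.41 and 1.18 CPM, and more anxious mice 2, 6, 9 and 10 had 4.33, 3.92, 0.478 and 1.09 CPM. Mice 2, 6, 7 and 12 were high and came from the less and the more anxious groups, each of which also held mice with low levels. The highest mouse exceeded the lowest 10.5-fold, from 21 to 192 estimated reads. The antisense gene Gm48140 overlaps Greb1 but has no values in the deposited counts. The overlapping miRNA gene Gm44305 was listed at 0 in the 11 mice. The SD of log2 CPM was 1.16, above that of 98.9% of the genes with a mean of at least 1 CPM, whose median was 0.21. Anxious mice were 2.67-fold below less anxious mice (log2 change -1.42, SE 0.65, unadjusted p = 0.0584, adjusted p = 0.987), which did not pass, and more against less anxious mice gave a log2 change of -0.87 (SE 0.65). Both depended on single mice. Without mouse 12 they were -0.697 and -0.179, and without mouse 2 or mouse 9 the change of more against less anxious mice was -1.374 or -0.5.

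**Figure D1:**
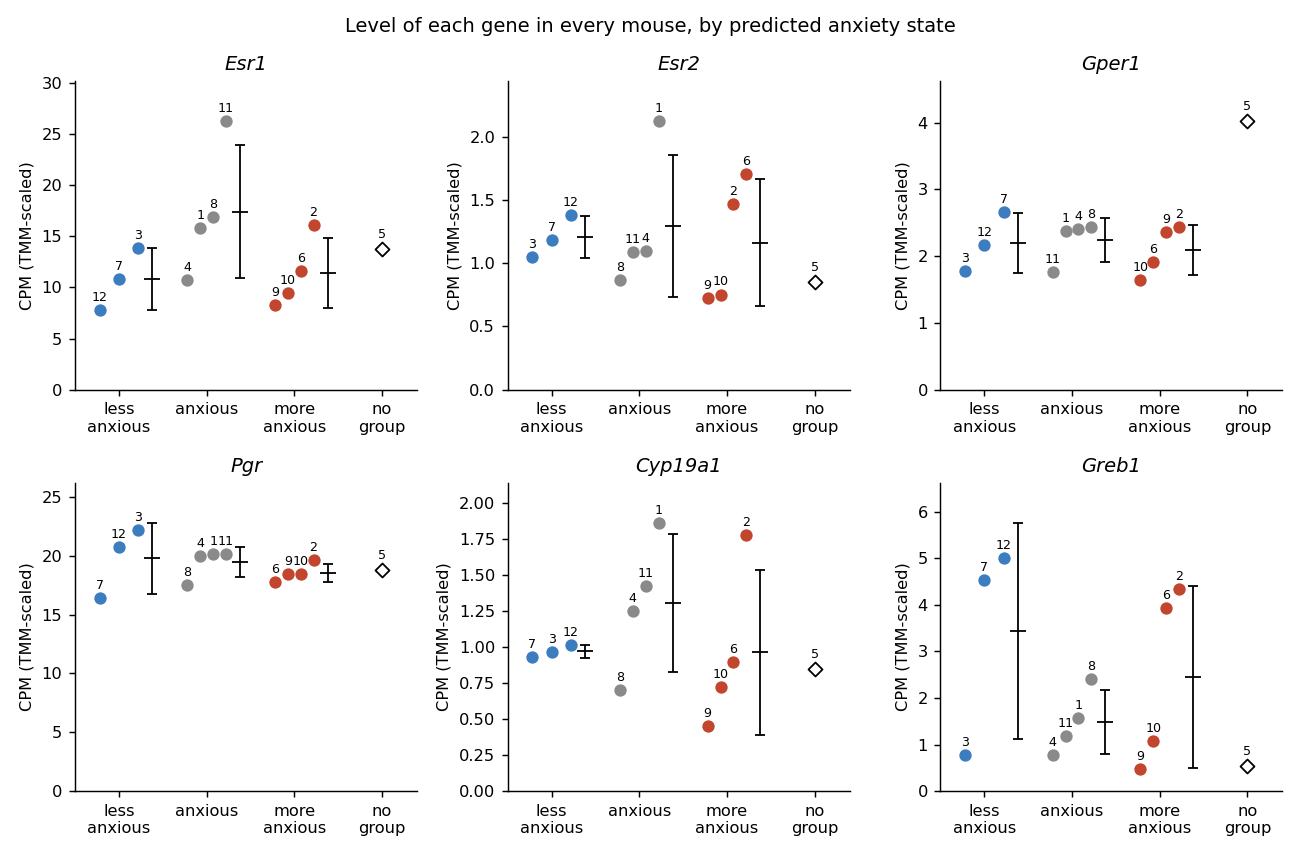
Level of each gene in CPM (vertical axes from 0) by predicted anxiety state. Points are mice with their numbers, bars are the mean and SD of each group, and the open diamond is mouse 5, which has no state; Greb1 runs from 0.478 to 5.01 CPM in the 11 mice, and the less and more anxious groups overlap in all 6 panels.

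Across the 3 states together, 0 of the 6 genes passed edgeR's test at an adjusted p under 0.05, where 0.00742% of 26963 genes tested did, and 0 of 6 had an unadjusted p under 0.05, where 6.35% of all genes did. DESeq2's likelihood ratio test of the same model also called 0 of the 6 genes, of which 4 got an adjusted p. It called 0.571% of the 34511 genes with a read, a share that counts genes with or without an adjusted p. Its unadjusted p-values were under 0.05 for 2 of the 6, Esr1 and Greb1, and for 4.95% of all genes. The pairwise contrasts, which share groups, called 0 of 6 genes in more against less anxious mice (0.0445% of all genes), 0 of 6 in anxious against less anxious mice (0.00371%) and 0 of 6 in more anxious against anxious mice (0.0%). None of these contrasts gave a member an unadjusted p under 0.05 in edgeR, where in the same order 8.84%, 4.74% and 4.57% of all genes had one. DESeq2 gave 0, 2 and 1 of the 6, against 6.55%, 3.46% and 3.26% of all genes. In CPM the less and more anxious mice did not separate for any of the 6 genes, where 8.4% of all genes tested had no overlap between these groups.

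The behavior measures asked whether the level of a gene followed what a mouse did. Each of 7 measures was tested as a number over the 11 mice, or 10 for the 3 min ratio, which gives 42 relations with the 6 genes. Of these, 5 had an unadjusted p under 0.05 in edgeR, as did 3.55% to 8.05% of all genes by measure, and 0 passed after adjustment over all genes. Slopes are log2 changes for 1 SD of the measure.

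The steepest slopes were those of Greb1 on the box:zone ratio of the social interaction test, which relates time in direct contact at the box of a stranger mouse to time in the wider zone around it. They were negative and did not pass the adjusted threshold in edgeR. The ratio in the first 3 min was lowest in mouse 7 at 0.236, then 0.691 in mouse 12, 0.797 in mouse 6 and 0.801 in mouse 2, and these are the 4 mice with Greb1 between 3.92 and 5.01 CPM. It was 0.943 in mouse 1, 0.989 in mouse 11 and 1.15 in mouse 8, whose Greb1 level was between 1.18 and 2.41 CPM. The highest ratios, 1.45 in mouse 10, 1.70 in mouse 3 and 1.84 in mouse 9, went with 1.09, 0.775 and 0.478 CPM. Mouse 4 has no ratio at 3 min.

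The slope of Greb1 on the 3 min ratio was -1.09 per SD of 0.490 (SE 0.18, n = 10 mice), a 2.13-fold lower level for each SD. Its unadjusted p of 3.5e-05 in edgeR was the rank 10 of 26651 genes, and its adjusted p was 0.0933. Of the 6 genes 0 were called at 3 min, where 0.015% of all genes were, and 1 had an unadjusted p under 0.05, where 7.65% did. Pearson's r of log2 CPM with the ratio was -0.892 (permutation p = 0.00028) and Spearman's rho was -0.939 (permutation p = 0.00017), and r stayed at -0.759 without mice 3 and 9, whose ratios are farthest from the median. The relation crossed the threshold in other settings. In DESeq2 its adjusted p was 1.62e-05. There 0.47% of the 34253 genes with a read were called, a share that counts genes with or without an adjusted p. In edgeR the adjusted p was 0.0476 when every gene with a read was tested (0.0321% called) and 0.04 with the rank of the ratio (0.0225%).

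Mice 4 and 5 did not enter this fit. Mouse 5, the outlier named above, had 0.548 CPM of Greb1 at a 3 min ratio of 0.832, and with it the edgeR slope was -0.997 and the adjusted p was 0.336. Mouse 4 had 0.784 CPM at a 5 min ratio of 0.768. The first 5 and 10 min contain the first 3 min, so the 3 ratios are not separate tests.

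At 5 min the slope of Greb1 was -0.73 (SE 0.27, unadjusted p = 0.0206, adjusted p = 0.688 in edgeR), and at 10 min it was -0.73 (SE 0.29, unadjusted p = 0.0287, adjusted p = 0.56). At 5 min Pearson's r of -0.598 had a permutation p of 0.0503 and rho of -0.636 one of 0.0407, and r was -0.456 without mice 2 and 3. At 10 min r of -0.53 had a permutation p of 0.0845 and rho of -0.5 one of 0.121, and r was -0.37 without the same mice. At each time 0 of 6 genes were called (0.0111% and 0.0223% of all genes) and 1 of 6, Greb1, had an unadjusted p under 0.05 (6.56% and 8.05%).

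**Figure D2:**
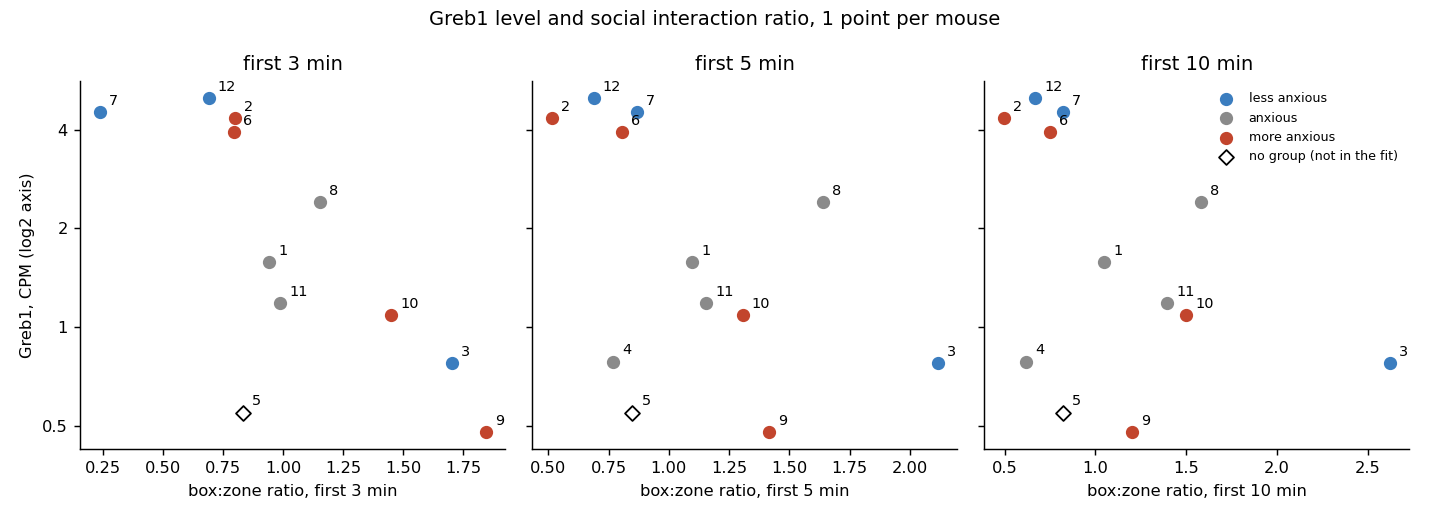
Greb1 in CPM (log2 vertical axis) against the box:zone ratio up to 3, 5 or 10 min (horizontal axes), 1 point per mouse colored by state, with mouse 5 as an open diamond. At 3 min the 4 mice with ratios up to 0.801 have the 4 highest levels, and mouse 5 is low in Greb1 at a ratio of 0.832. Mouse 4 has no 3 min ratio and is low in Greb1 at a 5 min ratio of 0.768.

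The other 2 relations with an unadjusted p under 0.05 concerned Esr2 and Cyp19a1. The slope of Esr2 on time in the light was 0.28 (SE 0.12, unadjusted p = 0.0356, adjusted p = 1.0 in edgeR), without passing. Mouse 6 spent 46.6% of its time in the light and had 1.71 CPM of Esr2, while mouse 9 spent 12.4% and had 0.728 CPM. Pearson's r was 0.61 (permutation p = 0.046), rho was 0.573 (permutation p = 0.0701), and r was 0.674 without mice 3 and 6. In this test 0 of 6 genes were called (0.00742% of all genes) and 1 of 6 had an unadjusted p under 0.05 (3.55%).

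Esr2 also had negative slopes on the box:zone ratios, none with an unadjusted p under 0.05 in edgeR. The slope was -0.31 (SE 0.147, unadjusted p = 0.0551, adjusted p = 0.661) at 3 min, -0.235 (SE 0.133, unadjusted p = 0.0965) at 5 min and -0.206 (SE 0.135, unadjusted p = 0.147) at 10 min. At 3 min r was -0.602 (permutation p = 0.0656), rho was -0.733 (permutation p = 0.0202), and r was -0.456 without mice 3 and 9. At 5 min r of -0.514 had a permutation p of 0.106 and rho of -0.709 one of 0.0179, with r of -0.605 without mice 2 and 3. At 10 min r of -0.439 had a permutation p of 0.179 and rho of -0.645 one of 0.0362, with r of -0.565 without the same mice. The p-values of these correlations are not adjusted for the number of relations.

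The slope of Cyp19a1 on total maze entries was -0.305 (SE 0.14, unadjusted p = 0.0409, adjusted p = 0.7 in edgeR), again without passing. Mouse 2 made the fewest entries, 6, with 1.78 CPM, and mouse 1 the next fewest, 15, with 1.86 CPM. Without these 2 mice r changed from -0.478 (permutation p = 0.136) to 0.227, so the slope rested on them, and rho was -0.446 (permutation p = 0.169). With 0 of 6 genes called (0.0% of all genes), 1 of 6 had an unadjusted p under 0.05 (6.97%). Greb1 also depended on the same mice here, with r of 0.183 (permutation p = 0.593) and rho of 0.419 (permutation p = 0.199) in all 11 and r of 0.837 without mice 1 and 2.

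Open-arm time and the share of distance in the light called 0 of 6 genes each (0.0% of all genes for both), with 0 of 6 at an unadjusted p under 0.05 in edgeR (5.84% and 5.8% of all genes) and in DESeq2 (4.55% and 4.5%). The largest slope on open-arm time was that of Greb1, 0.38 (SE 0.30), and on distance in the light that of Esr2, 0.24 (SE 0.12). Slopes of Pgr stayed between -0.01 and 0.05 over the 7 measures.

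**Figure D3:**
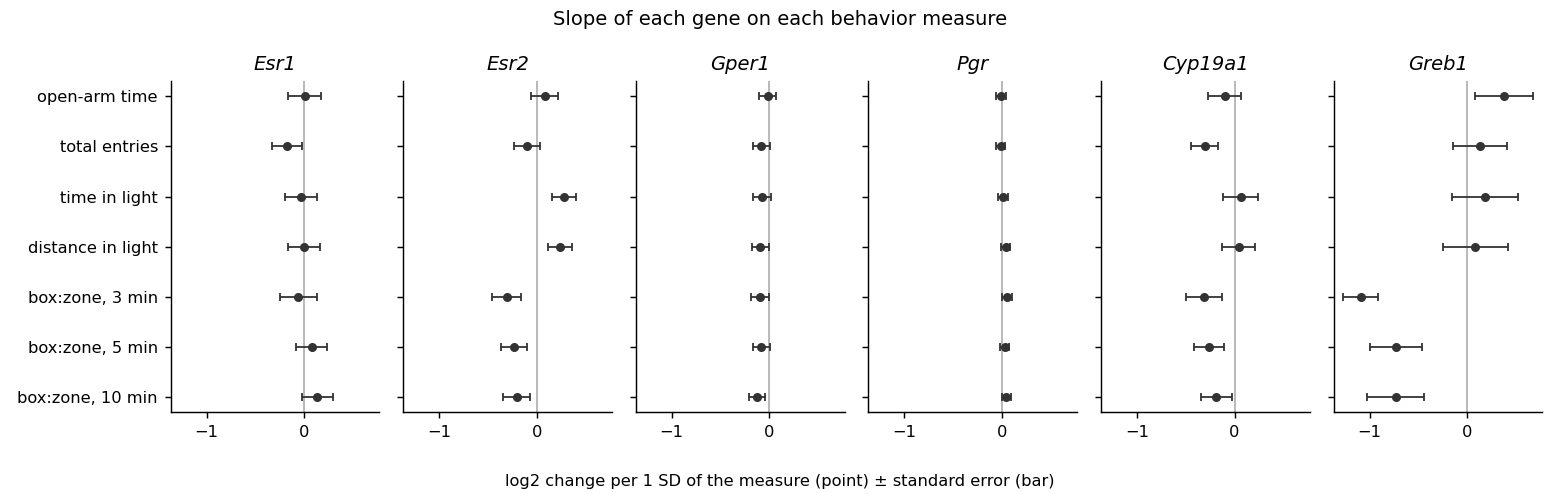
Slope of each gene on each of the 7 behavior measures, as log2 change per SD of the measure (horizontal axis), with bars of 1 standard error from edgeR. The 3 box:zone slopes of Greb1, from -1.09 to -0.73, lie farthest from 0, and those of Pgr stay within 0.05.

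Between the genes themselves, 15 pairs were compared over the 11 mice. Esr2 and Cyp19a1 moved together most closely, with r of 0.749 (permutation p = 0.00816, 0.122 after Benjamini-Hochberg adjustment over the pairs), rho of 0.691 (permutation p = 0.0227) and r of 0.8291 without mice 1 and 6. Mouse 1 was highest in both and mouse 9 lowest in both. Esr1 showed r of 0.22 with Esr2 and 0.553 with Cyp19a1 (permutation p = 0.517 and 0.0778), with rho of 0.191 and 0.382 (permutation p = 0.576 and 0.248), and r of 0.527 and 0.627 without mice 11 and 12. Esr2 and Greb1 showed r of 0.546 (permutation p = 0.0844, 0.422 after adjustment over the pairs), rho of 0.636 (permutation p = 0.0412) and r of 0.7004 without mice 1 and 6. Of the 15 pairs, 1 had a permutation p for r under 0.05.

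Of 66 relations between these genes and the marker lists, 7 had a permutation p for r under 0.05, and 0 did after adjustment over the 66. The share of all genes with such relations was not computed, so this count does not set these genes apart. Esr1 was higher where the summed oligodendrocyte markers were lower, with r of -0.795 (permutation p = 0.00282, adjusted 0.186) and rho of -0.691 (permutation p = 0.022). This rested in part on mice 8 and 11, without which r was -0.484. That list had 7 of 7 genes at 1 CPM or more, and its sum was 2652 to 3420 CPM in less anxious, 1614 to 3214 in anxious and 2140 to 2911 in more anxious mice. Its part in the Esr1 level was not tested.

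Esr2 was higher with the medial and other subpallial amygdala list, with r of 0.753 (permutation p = 0.00769, adjusted 0.253), rho of 0.855 (permutation p = 0.00153) and r of 0.864 without mice 10 and 11. Greb1 showed r of 0.665 with the same list (permutation p = 0.0295, rho 0.627 with permutation p = 0.0447, r of 0.735 without those mice). Cyp19a1 showed r of 0.41 with it (permutation p = 0.21), which was 0.743 without those mice. Esr1 showed r of -0.19 (permutation p = 0.577), which was 0.254 without them, and Pgr r of -0.17 (permutation p = 0.614), which was -0.175. Greb1 also showed r of 0.723 with a choroid plexus list (permutation p = 0.0115, rho 0.682 with permutation p = 0.0253), which was 0.52 without mice 7 and 12. That list summed to 16.3 to 24.9 CPM in less anxious, 13.0 to 15.1 in anxious and 10.4 to 17.6 in more anxious mice, with 4 of its 8 genes under 1 CPM. The part of these cell populations, or of neighboring tissue, in the levels of Esr2 and Greb1 was not tested.

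The remaining 3 relations concerned Esr1, Pgr and Gper1. Esr1 showed r of -0.637 with the striatum list (permutation p = 0.0347, rho -0.591 with permutation p = 0.0607), which was -0.493 without mice 7 and 12. Pgr showed r of -0.651 with the basolateral and cortical amygdala list (permutation p = 0.0292, rho -0.645 with permutation p = 0.0367), which was -0.598 without mice 3 and 9. Gper1 showed r of 0.644 with the medial and other subpallial list (permutation p = 0.0354, rho 0.636 with permutation p = 0.0392), but 0.29 without mice 10 and 11. The adjusted p was 0.334 for each of the 3, and the part of these populations in the levels was not tested.

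The main component of all expression values, PC1, was built from the same table, with Pgr and Greb1 in it. Its relation to a gene is therefore not independent of that gene, and the share of all genes with such an r was not computed. PC1 showed r of -0.748 with Pgr (permutation p = 0.00882), rho of -0.718 (permutation p = 0.0161) and r of -0.666 without mice 6 and 8. With Greb1 r was 0.572 (permutation p = 0.0688), rho 0.545 (permutation p = 0.0868) and r 0.523 without the same mice, and with the 3 min ratio r was -0.582 (permutation p = 0.0791), rho -0.539 (permutation p = 0.114) and r -0.795 without them. With PC1 in the edgeR fit the slope of Greb1 on the 3 min ratio was -0.963 and its adjusted p was 0.217.

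**Figure D4:**
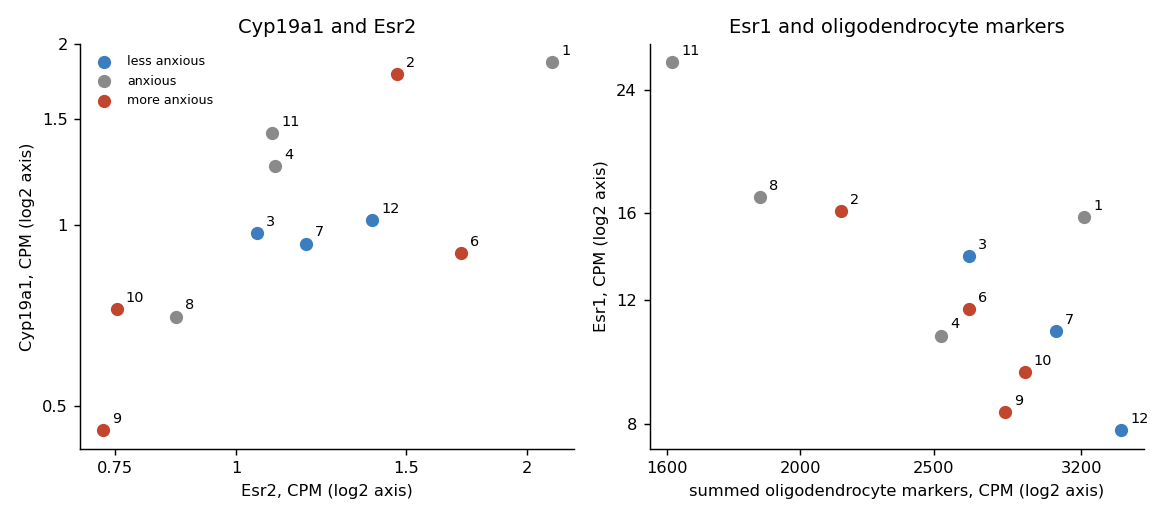
Cyp19a1 against Esr2 (left) and Esr1 against the summed oligodendrocyte markers (right), in CPM on log2 axes, 1 point per mouse with its number, colored by state. Mouse 1 is highest and mouse 9 lowest in both genes on the left, and on the right mouse 11 has the highest Esr1 (26.3 CPM) and the lowest marker sum (1614 CPM).

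The genes whose pattern over the 11 mice was most like each member were listed by Pearson's r of log2 CPM among genes with a mean of at least 1 CPM. They were chosen for this likeness and carry no test of it. For Esr1 they were Rnf182 (r 0.938), Zfp608 (0.929) and Pip5k1b (0.904). For Esr2 they were Gabre (0.924), which encodes the epsilon subunit of the GABA-A receptor, Brs3 (0.915), which encodes a bombesin-type receptor, and Pgr15l (0.911), a G protein-coupled receptor gene on the X chromosome that is unrelated to Pgr despite its symbol.

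For Pgr the nearest genes were Ttc14 (0.959), Zfp518a (0.955) and Fam208a (0.944), and for Gper1 they were Fbxw8 (0.877), Tnnc1 (0.862) and Ube2cbp (0.861). Cyp19a1 was followed most closely by Zdbf2 (0.925), Appbp2 (0.917) and the kinase gene Braf (0.902). For Greb1 they were Ptch1 (0.896), which encodes the Hedgehog receptor, Bptf (0.865), which encodes a chromatin remodeling subunit, and the nucleoside transporter gene Slc29a1 (0.843).

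Ptch1 ranged from 23.7 CPM in mouse 9 to 74.9 CPM in mouse 7. It was one of the 4 genes called at 3 min, with a slope of -0.52 (SE 0.054, adjusted p = 0.0013 in edgeR). Since it was picked for its likeness to Greb1, this slope adds nothing independent to that of Greb1.

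The wider sex-steroid pathway was followed in 6 lists with 79 genes, of which 73 could be tested. In the 3-state comparison 0 of the 73 were called by edgeR (0.00742% of all genes) and 6 had an unadjusted p under 0.05 (6.35% of all genes). In more against less anxious mice 30 of the 73 had a positive and 43 a negative log2 change, where 50.5% of all genes were positive. The behavior measures called 0 genes of every list.

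In a list of 11 other sex-steroid receptors and related receptors 0 were called. The list includes membrane progestin receptors and the genes of the estrogen-related receptors, Esrra, Esrrb and Esrrg. Its median log2 change of more against less anxious mice was -0.07, beside 0.00 over all genes. Paqr7 and Paqr8, which encode membrane progestin receptors, were among the genes with the smallest unadjusted p-values. Paqr7 had 68.2 ± 10.1 CPM (SD, n = 3) in less anxious, 63.8 ± 5.84 (n = 4) in anxious and 59.3 ± 5.26 (n = 4) in more anxious mice (log2 change -0.24, SE 0.099, for more against less anxious, 3-state adjusted p = 0.835 in edgeR). Its groups overlapped, from 52.7 to 64.4 CPM in more and 61.2 to 79.7 CPM in less anxious mice. Paqr8 had 97.1 ± 13.4, 85.5 ± 14.6 and 76.7 ± 8.33 CPM in the same order, at an adjusted p of 0.844.

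Of 17 genes of neurosteroid synthesis 15 were tested, 0 were called, and the median log2 change was 0.06. Akr1c14, which encodes the enzyme that makes allopregnanolone from its precursor, had 1.93 ± 0.319 CPM in less anxious, 1.70 ± 0.348 in anxious and 1.15 ± 0.329 in more anxious mice (log2 change -0.74, SE 0.26; 3-state test in edgeR unadjusted p = 0.033, adjusted p = 0.732). The 4 more anxious mice (0.858 to 1.62 CPM) lay below the 3 less anxious mice (1.69 to 2.29 CPM). Of all genes tested, 8.4% had no overlap in one direction or the other. Among the genes named below, Safb, Stub1 and Stip1 (higher in more anxious mice) and Prl (lower) had no overlap either. These genes were named for small p-values in the 3-state comparison, so this separation is no further result. Hsd17b1 and Star, the next by p, had 3-state adjusted p-values of 0.932 and 0.936. Of 8 genes that inactivate or convert estrogens and progestins 6 were tested and 0 called, with a median of -0.14. Hsd17b4 and Cyp1b1 were among those with the smallest p-values, with log2 changes of -0.15 (SE 0.086) and -0.21 (SE 0.51).

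Coregulators and chaperones serve the receptors at the promoter and before hormone binds. Of 15 coregulators 0 were called and the median was -0.05. Safb, which encodes a repressor of estrogen receptor activity, had 124 ± 10.4, 146 ± 11.5 and 152 ± 12.2 CPM in less anxious, anxious and more anxious mice (3-state adjusted p = 0.737 in edgeR). Nrip1 and Crebbp followed, at adjusted p-values of 0.842 and 0.9. Of 8 chaperones 0 were called and the median was -0.04. Stub1, a ubiquitin ligase that works with heat shock proteins, had 110 ± 8.75, 133 ± 7.92 and 132 ± 10.4 CPM, and Stip1, which links Hsp70 to Hsp90 chaperones, had 156 ± 7.78, 195.3 ± 23.5 and 186 ± 21.2 CPM in the same order. Their adjusted p-values were 0.715 and 0.756, and Fkbp5 had one of 0.856.

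Of 20 genes known to respond to estrogen in various tissues 18 were tested and 0 called, with a median log2 change of -0.15. Prl, which encodes prolactin, a hormone made by pituitary cells, had 0.637, 0.931 and 1.62 CPM in less anxious mice 3, 7 and 12 and 2.15, 31.9, 0.596 and 4.57 CPM in anxious mice 1, 4, 8 and 11. In more anxious mice 2, 6 and 10 it had 0.135, 0.0899 and 0.0557 CPM, and it was listed at 0 in mouse 9. Its 3-state unadjusted p was 0.00733 and its adjusted p 0.553 in edgeR. DESeq2 values for Prl and the other list genes are not reported here. The study, which tested with DESeq2, named prolactin among its most downregulated genes in the high anxiety mice. The mice with the highest Prl, 4 and 11, also had the highest summed pituitary markers, a list that contains Prl, and the part of pituitary tissue was not tested. Rerg and Igfbp4 came next, with adjusted p-values of 0.777 and 0.793.

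**Figure D5:**
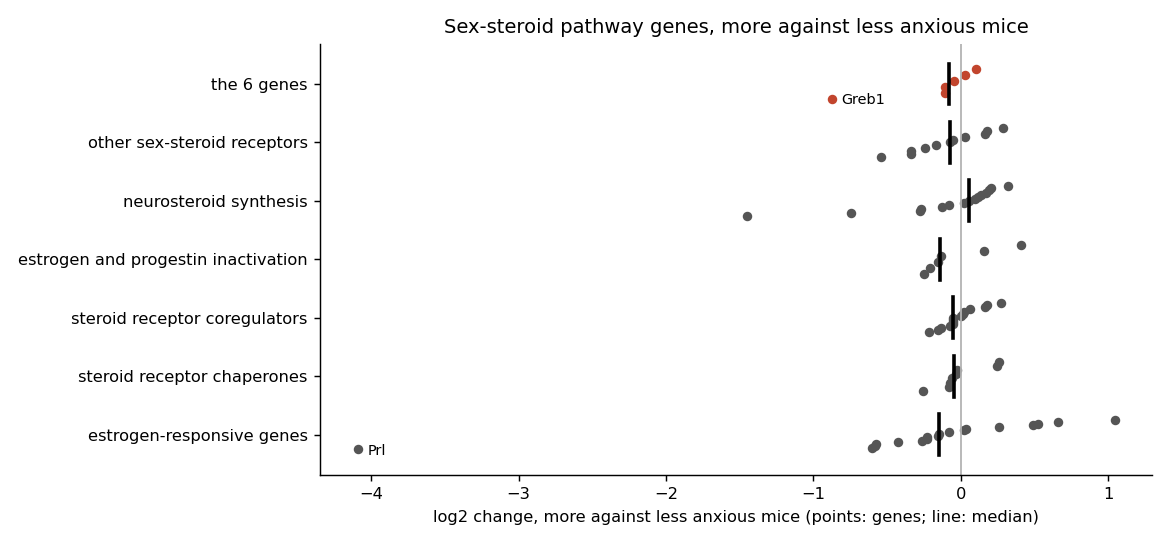
Log2 change of more against less anxious mice (horizontal axis) for the 6 genes and the 6 pathway lists. Each point is a gene and each line the median of its list; Prl lies at -4.09, and the list medians lie between -0.15 and 0.06.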

How the data were processed

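The study measured amygdala mRNA of 12 female C57/BL6 mice, sequenced as a single batch. The deposited values are expected counts (estimated counts of reads per gene) that the authors made with Salmon and tximport after cutadapt trimming, with STAR alignment to mm10 serving for quality control, and they are whole numbers without normalization. Tool versions and the annotation release are not given in the sources used here. GENCODE M21 named 47310 of 47729 genes (99.1%).

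States and behavior came from the labels. The tools were edgeR 4.0.16 and DESeq2 1.42.0 under R 4.3.3, and pandas 2.3.3, scipy 1.17.1, numpy 2.4.6 and matplotlib 3.10.9 under Python 3.11.15. edgeR's quasi-likelihood F-test (robust, TMM factors) was fitted to all genes with at least 10 reads in total, with PC1 as a covariate for the groups, a covariate the study also used, and with none for behavior. PC1 was computed here from DESeq2's variance-stabilized counts of 34511 genes with a read. Benjamini-Hochberg adjusted p-values covered all genes tested, and an adjusted p under 0.05 was called. Log2 CPM used a prior count of 2, and correlations used 100000 two-sided permutations. CPM per kilobase used the union of exons.

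The members and lists were chosen with earlier results of these data known. Named by rule were the members, the 3 genes most like each, and from each pathway list every called gene and the 3 with the smallest unadjusted p in the 3-state comparison, of which some are not reported here. Totals of 31745630 to 45142355 counts per mouse gave 20 to 79 reads for Esr2 and Cyp19a1, a precision that covers counting error only. Procedures were tested on simulated data. Alternatives concerned the size factors, the read filter, DESeq2 in place of edgeR, robust estimation, PC1, group order, ranks, the CPM total, the prior count, mouse 5 and each mouse left out.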

Additional observations from a re-analysis of the deposited data

Results flagged for a closer look

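A mouse stood apart from the other 3 of its group in 3 of 34 checks, each on 4 mice with Dixon's test of the gap over the range, which chance passes in about 1 of 20 groups. Pgr was 17.5 CPM in anxious mouse 8, below the other anxious mice at 19.99 to 20.17 CPM. Gper1 was 1.76 CPM in anxious mouse 11, below the others at 2.38 to 2.44 CPM. The summed striatum markers were 756 CPM in anxious mouse 1, above the other anxious mice, the lowest of which had 383 CPM.

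Mouse 5, which the study set aside as an outlier and which entered no group comparison, had 4.02 CPM of Gper1, above the range of 1.64 to 2.67 CPM in the 11 other mice. Its other 5 genes lay within the range of those mice.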

How the results depend on the processing

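No paired analysis was possible because the labels give each mouse its own number, so the groups share none. None of 390 recomputed changes of the 6 genes outside the leave-one-out fits lost a call, since none had one, and 3 gained one, all for Greb1 at 3 min. The recomputed group means in CPM and the 18 values of r of the most similar genes moved by less than the spread between mice or kept their place among the nearest 3. The smallest effects turned sign. With ranks of the measure the slopes of Esr1 were -0.011 (open-arm time), 0.032 (distance in the light) and 0.057 (3 min ratio), and with DESeq2's size factors or DESeq2 itself 0.002 (distance in the light). Esr1 gave -0.0002 and Cyp19a1 -0.028 with the group order as a number. Without PC1 the log2 changes were -0.02 for Pgr and 0.033 for Gper1 (anxious against less anxious) and -0.011 for Cyp19a1 (more against less anxious). With PC1 the slopes of Pgr were 0.021 (open-arm time), -0.012 at 3 and 5 min and -0.004 at 10 min. The cause was not tested. For Greb1 at 3 min the slope ran from -1.182 to -0.88 with a mouse left out, at adjusted p-values from 0.0517 to 0.305.

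The counts of genes called over the whole table moved more. DESeq2 called 197 genes in the 3-state comparison, 300 in more against less, 11 in anxious against less and 48 in more anxious against anxious mice, and 43, 45, 15, 26, 161, 43 and 111 for open-arm time, entries, time and distance in the light and the ratios at 3, 5 and 10 min. With every gene with a read edgeR called 9 (3-state), 25 (more against less), 1 (open-arm time), 4 (time in the light), 11, 7 and 10 (3, 5 and 10 min). Without the robust option it called 1 (3-state), 2 (more against less), 2 (open-arm time) and 1 (time in the light). Without PC1 it called 0 (3-state), 3 (more against less) and 0 (anxious against less), and with the group order as a number 22 (3-state). With DESeq2's size factors it called 1 for open-arm time. With mouse 5 it called 1 (open-arm time), 1 (time in the light) and 6 (5 min). With ranks it called 0 for time in the light and at 5 and 10 min, and with PC1 0 for time in the light, 2 at 3 min, 0 at 5 min and 2 at 10 min. Leaving out each mouse gave 0 to 4 calls (3-state), 0 to 24 (more against less), 0 to 2 (anxious against less), 0 to 1 (more anxious against anxious), 0 to 3 (open-arm time), 0 to 5 (entries), 0 to 16 (time in the light), 0 to 14 (distance in the light), 1 to 6 (3 min), 1 to 5 (5 min) and 1 to 9 (10 min).

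With a mouse left out, 25 of the 60 changes of the 6 genes had a sign that depended on the mouse. For more against less anxious mice they ran from -0.106 to 0.293 (Esr1), -0.292 to 0.124 (Esr2) and -0.455 to 0.371 (Cyp19a1), for anxious against less anxious mice from -0.362 to 0.253 (Esr2), -0.092 to 0.069 (Pgr) and -0.098 to 0.084 (Gper1), and for more anxious against anxious mice from -0.455 to 0.194 (Esr2) and -0.202 to 0.02 (Gper1). Greb1 kept its sign, at -1.374 to -0.179 for more against less and -1.737 to -0.697 for anxious against less anxious mice. Slopes on open-arm time ran from -0.095 to 0.088 (Esr1), -0.005 to 0.207 (Esr2), -0.025 to 0.018 (Pgr), -0.072 to 0.013 (Gper1) and -0.214 to 0.048 (Cyp19a1), and on entries from -0.171 to 0.019 (Esr2) and -0.051 to 0.692 (Greb1). On time in the light they ran from -0.122 to 0.024 (Esr1), -0.007 to 0.064 (Pgr), -0.07 to 0.241 (Cyp19a1) and -0.061 to 0.441 (Greb1), and on distance in the light from -0.085 to 0.071 (Esr1), -0.082 to 0.319 (Cyp19a1) and -0.086 to 0.492 (Greb1). On the ratios they ran from -0.178 to 0.097 (Esr1, 3 min), -0.032 to 0.047 (Pgr, 5 min) and -0.024 to 0.057 (Pgr, 10 min).

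Esr2 and Cyp19a1 had 20 to 79 reads per mouse, for which counting alone gives coefficients of variation of 14.8% and 15.6% at their means, against 34.6% and 40.8% measured between mice.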
